A study of Mus musculus with 9 samples.

Results

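The genes described here encode the subunits of the oxidative phosphorylation system. They were chosen by symbol from the deposited gene table: Nduf genes of the a, b, c, s and v series for complex I, Sdha to Sdhd for complex II, Uqcr genes for complex III, Cox4 to Cox8 genes for complex IV, Atp5 genes for complex V, and the genes of the mitochondrial genome for subunits of these complexes. Of 103 rows with such a symbol, 6 were left out for a pseudogene symbol and 4 because TPM (the deposited level per length, with an equal total in all libraries) stayed under 1 in every library. The remaining 93 genes, of 50600 in the table, comprised 80 nuclear and 13 mitochondrially encoded genes, with 44 in complex I, 4 in complex II, 9 in complex III, 17 in complex IV and 19 in complex V. Among the genes retained, Cox6a2 had the lowest maximum (1.63 TPM), and of those left out for their level Cox4i2 reached 0.16 TPM while Cox7b2, Cox8b and Cox8c were at 0. TPM was at least 1 in all 9 libraries for 89 of the 93 genes. Symbols select imperfectly: Ndufab1 and Cyc1, which encode subunits of complexes I and III, lie outside the pattern and were followed separately, while Atp5s and Atp5sl are matched although they are not counted among the core subunits of ATP synthase, and Ndufa4l2 is a paralogue of Ndufa4 best known as a hypoxia target.

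Mitochondria pass electrons from NADH through complex I, and from succinate through complex II, to coenzyme Q, complex III, cytochrome c and complex IV, and the proton gradient built on the way drives ATP synthase, complex V. Complexes I, III, IV and V are assembled from subunits of both genomes, whereas complex II, which is also an enzyme of the citric acid cycle, is wholly nuclear. In the small intestine, absorptive enterocytes are rich in mitochondria, and several subunits have tissue-specific isoforms, such as Cox7a1, which is usually described in heart and skeletal muscle.

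RNA was sequenced from 9 mouse libraries in 3 groups of 3. A pair of groups were organoids of normal small intestine from 3 wildtype C57BL/6 mice, aged 2 to 5 months by the study's methods, kept for 24 hr in a mixture that was 50% conditioned medium and 50% organoid medium with EGF, Noggin and R-spondin1. The conditioned medium came from cultures of Apc-mutant tumoroids (T-cM) or of wildtype organoids (WT-cM). The third group was untreated tumoroids grown from intestinal tumours of 3 Apc1638N/+ mice older than 6 months, labelled with the strain MIX and kept in EGF and Noggin without R-spondin1, so that genotype, strain label, age and medium cannot be told apart in comparisons with organoids. For the organoid libraries the titles and the treatment fields name opposite media. The groups bear the names of their titles, as WT-cM-titled and T-cM-titled, and each direction between them turns round if the treatment field is right. Reads counted on genes ranged from 16541635 to 25170966 per library, and a floor of 3 counts corresponded to between 0.103 and 0.204 CPM (counts scaled by the TMM-normalised library size), a limit that covers counting error only. All 9 epithelial markers were detected in every library. The CPM of the marker sums in this paragraph were scaled by the counted reads of each library, without the TMM factor. That factor was 0.8895 to 0.9617 in organoids and 1.185 to 1.215 in tumoroids. With it, the sums would be higher in organoids and lower in tumoroids. Without it, the summed epithelial levels were 8950 to 11640 CPM in organoids and 8503 to 9183 CPM in tumoroids. Summed levels of 10 enterocyte markers were 16100 to 30340 CPM in organoids and 150 to 472 CPM in tumoroids. Stromal markers summed to 0.605 to 1.60 CPM in organoids and 3.11 to 57.5 CPM in tumoroids, with 4 to 8 of 10 at 0, and immune markers to 1.43 to 4.96 and 9.28 to 32.9 CPM, with 2 to 5 of 8 at 0. Endothelial markers summed to 0.967 to 1.59 CPM in organoids and 1.71 to 7.16 CPM in tumoroids.

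Promoters of these genes are known to carry sites for NRF1, ETS factors such as GABP, YY1 and oestrogen-related receptors (ERR). The following stretches, from the RefSeq table on GRCm38.p6, are shown because their genes recur below: a subunit gene lower in both contrasts (Uqcr11), a ubiquitous complex IV isoform (Cox6a1), the main gene for ATP synthase subunit c (Atp5g3) and the gene with the largest difference among those counted in every library (Cox7a1). Each runs 5′ to 3′ on the gene's strand over 150 bases that end 30 bases before the RefSeq start. Capitals mark matches, on either strand, to NRF1 (GCGCA, any base, GCGC), ETS (CCGGAAG), YY1 (AAGATGGCG) or ERR (TCAAGGTCA).
Uqcr11, chr10:80406852-80407001, minus strand: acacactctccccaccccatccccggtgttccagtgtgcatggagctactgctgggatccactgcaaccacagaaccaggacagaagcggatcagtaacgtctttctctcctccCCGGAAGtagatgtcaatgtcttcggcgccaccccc
Cox6a1, chr5:115348989-115349138, minus strand: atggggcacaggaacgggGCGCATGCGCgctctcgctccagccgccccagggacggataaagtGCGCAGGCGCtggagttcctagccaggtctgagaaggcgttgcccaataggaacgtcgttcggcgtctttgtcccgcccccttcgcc
Atp5g3, chr2:73911357-73911506, minus strand: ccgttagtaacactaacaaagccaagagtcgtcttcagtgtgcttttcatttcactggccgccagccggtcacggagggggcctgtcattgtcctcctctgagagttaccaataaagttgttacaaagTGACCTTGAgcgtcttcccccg
Cox7a1, chr7:30183991-30184140, plus strand: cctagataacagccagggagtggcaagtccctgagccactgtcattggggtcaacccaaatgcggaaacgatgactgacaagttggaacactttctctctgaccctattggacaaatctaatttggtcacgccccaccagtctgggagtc
Uqcr11 holds an ETS match, Cox6a1 a pair of NRF1 matches and Atp5g3 an ERR match on the reverse strand, and Cox7a1 holds no match.

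Windows of 300 bases (250 before and 50 after the start) were given for 67 of the 80 nuclear genes, 6 of which had 2 windows, and a gene was counted once if any of its windows held the letters. The NRF1 letters occurred in 17 of these genes (25.4%), against 5.19% of all 27025 genes with a window and 11% of the 10456 tested genes with one. The ETS letters occurred in 16 (23.9%, against 9.93% of all genes and 19.4% of tested genes). The YY1 letters occurred in 8 (11.9%, against 1.64% and 3.45%) and the ERR letters in 2 (2.99%, against 0.466% and 0.306%). At least 1 of the 4 was found in 35 of 67 genes (52.2%), compared with 30.3% of tested genes. Sdha held 3 NRF1 matches, and the ERR matches lay in Atp5g3 and Sdhd. A match is a description of letters, and a window without one says nothing about the factor.

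The first comparison set tumoroids against organoids. Genes of all 5 complexes were lower in tumoroids, and in the fit with all libraries these were nearly all nuclear. Against WT-cM-titled organoids, 70 of 80 nuclear genes were lower and none was higher (edgeR quasi-likelihood test, adjusted p under 0.05), 46 of them by over 1 on the log2 scale, whereas 1 of 13 mitochondrially encoded genes was lower. The latter count rests on tumoroid replicate 2: without it 8 of 13 were lower, and the medians were −1.29 for mitochondrially encoded and −1.01 for nuclear genes. Over all 93 genes this was 71 lower, or 76.3%, beside 18.5% lower and 23.4% higher among the 16208 genes tested. A difference of over 1 on the log2 scale was met by 47 lower and 0 higher genes, beside 11.6% and 18.2% of all genes tested. The median nuclear log2 fold change was −1.10, that is 46.5% of the organoid level, while the median over all genes was 0.15, so that the nuclear genes stood at −1.25 relative to it. In 72 of 80 nuclear genes every tumoroid library lay below every WT-cM-titled library, which held for 22.5% of all genes, and none lay above (28.2% of all genes). In 16 nuclear genes over 10% of the sequence windows of 100 bases also occurred in other genes, most in Atp5l (69.0%), and without them the median was again −1.10 and 55 of 64 were lower. On the deposited TPM scale, where the median of all genes moved to 0.52, the nuclear median was −0.58. There 55 of the 93 genes were lower and 2 higher (Atp5s and mt-Atp8), beside 10.6% lower and 42.2% higher among all genes tested. Only 3 were lower and 1 higher by over 1.

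Against T-cM-titled organoids, 67 of 93 genes were lower and none was higher, beside 19.2% lower and 25.3% higher among all genes tested, and 35 were lower and 0 higher by over 1 on the log2 scale, beside 11.8% and 19.4%. In 70 of the 93 genes all tumoroids lay below all T-cM-titled libraries (beside 23.8% of all genes) and in 1, Atp5s, above them (beside 30.1%). Of the 67 genes called lower 66 were nuclear, and the median nuclear log2 fold change was −0.93. This split again rests on single libraries: leaving out 1 library gave 1 to 8 mitochondrially encoded genes lower. Without tumoroid replicate 2 their median moved from −0.558 to −1.295, and the nuclear median was −0.848. On the TPM scale 39 of the 93 genes were lower and 3 higher (Atp5s, Atp5g2 and Ndufa7), beside 10.9% lower and 41.9% higher among all genes tested. By over 1, 2 were lower and 1 higher. Ndufa2, called at −0.40 on counts (adjusted p = 0.0363), was not called on the TPM scale and had the opposite sign (0.11). Both comparisons share the tumoroid libraries and are not independent.

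**Figure D1:**
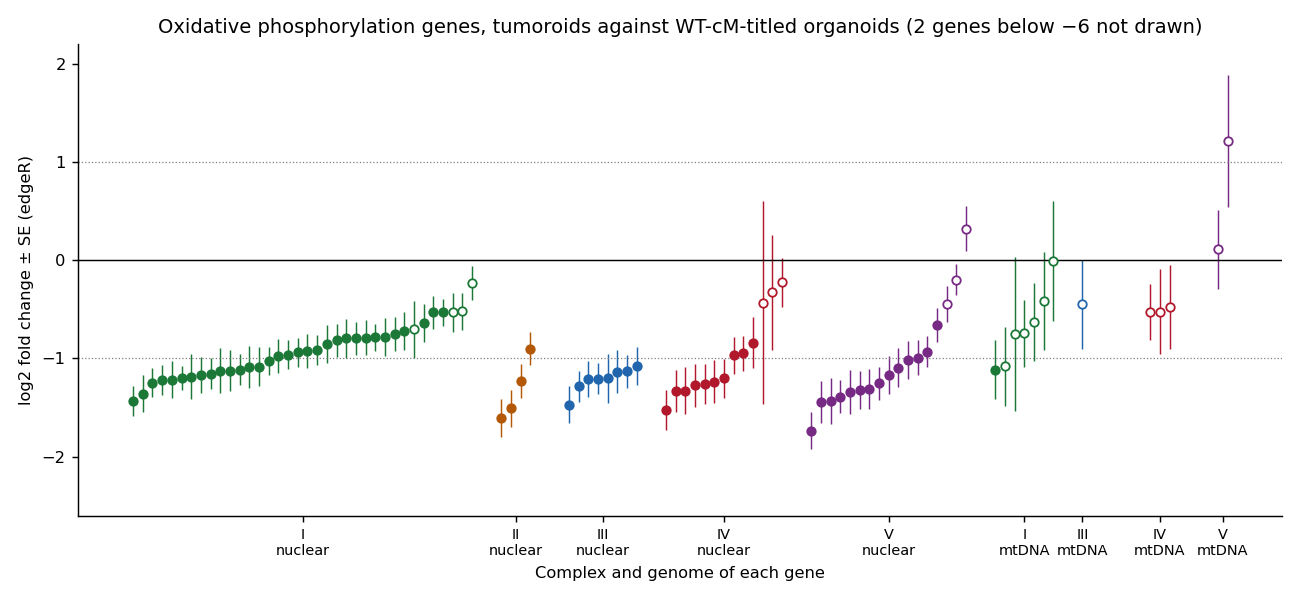
Log2 fold change with its standard error (edgeR) in tumoroids against WT-cM-titled organoids for 91 genes, by complex and genome; filled points passed adjusted p under 0.05, dotted lines mark −1 and 1. Nuclear genes of every complex lie below 0 except Atp5s, while most genes of the mitochondrial genome (mtDNA) are open points with wide errors; Cox7a1 (−6.37) and Ndufa4l2 (at 0 in tumoroids) are not drawn.

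Enterocyte markers moved with these contrasts: all 10 were lower in tumoroids against WT-cM-titled organoids (beside 18.5% of all genes tested), with a median log2 fold change of −8.13. Against T-cM-titled organoids 9 of 10 were lower (beside 19.2%), and Mep1a (−0.35) was not called. None of the 8 proliferation markers was called in either comparison, although leaving out 1 library gave up to 1 lower and 1 higher against WT-cM-titled organoids. Against WT-cM-titled organoids, of the 9 epithelial markers, 4 were lower (Vil1, Krt8, Krt19 and Cdx1) and 1 was higher (Krt18), both immune markers tested (Cd68 and Csf1r) were higher, and of the 2 stromal markers tested Acta2 was higher, beside 18.5% lower and 23.4% higher among all genes tested. Only 2 of 8 immune and 2 of 10 stromal markers reached 1 TPM in any library and were tested. A marker that did so only in tumoroids was bound to lie higher there, so that its direction is no independent observation. The 4 lower epithelial markers became 2 without WT-cM-titled replicate 2, and 1 immune marker was called without WT-cM-titled replicate 1 or 2 or tumoroid replicate 2. Against T-cM-titled organoids Csf1r was not called (2.31, adjusted p = 0.0787). In bulk RNA, fewer cells of a type and less RNA per cell cannot be told apart, and the part of any of these cell markers in the values of the oxidative phosphorylation genes was not tested.

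Complex I, the entry point for electrons from NADH, had 33 of 37 nuclear genes lower in tumoroids against WT-cM-titled organoids, with a median log2 fold change of −0.94. This count follows the symbols and so includes Ndufa4, now known as a subunit of complex IV, and its paralogue Ndufa4l2. The 7 nuclear genes of its catalytic core were all lower, with a median of −0.93. Ndufb10, an accessory subunit of the membrane arm, had 167, 192 and 199 CPM in WT-cM-titled organoids, 164, 174 and 170 CPM in T-cM-titled organoids and 82.1, 65.7 and 59.0 CPM in tumoroids. The tumoroid libraries lay well below all 6 organoid libraries, and the log2 fold change against WT-cM-titled organoids was −1.43 (SE 0.15, adjusted p = 8.82e-05). The genes that were not called were Ndufa7, Ndufb2, Ndufb4 and Ndufb11, named here after their values were seen, with log2 fold changes of −0.23, −0.70, −0.53 and −0.52. Ndufb11 missed the threshold narrowly (adjusted p = 0.0502), and Ndufb4 shared 33.4% of its windows with other genes.

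Complex II, succinate dehydrogenase, was lower in all 4 subunit genes, with a median of −1.37. Sdhb, the iron-sulphur subunit, had 295, 392 and 411 CPM in WT-cM-titled organoids, 278, 317 and 334 CPM in T-cM-titled organoids and 145, 113 and 103 CPM in tumoroids. The tumoroids did not overlap with either organoid group, with a log2 fold change against WT-cM-titled organoids of −1.61 (SE 0.19, adjusted p = 0.000158), or 3.05-fold lower. The membrane anchors Sdhd and Sdhc fell by 1.51 and 1.23 on the log2 scale (SE 0.19 and 0.17). Sdha, the flavoprotein that oxidises succinate, showed the smallest change of the 4 (−0.90, SE 0.17, adjusted p = 0.00192), with 909 ± 99.3 CPM (SD, n = 3) in WT-cM-titled organoids and 486 ± 55.5 CPM (SD, n = 3) in tumoroids.

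Complex III, which passes electrons from coenzyme Q to cytochrome c, had all 8 nuclear genes lower, each by over 1 on the log2 scale, within a range from −1.47 to −1.08. Uqcrfs1, the Rieske iron-sulphur protein, had 308, 391 and 394 CPM in WT-cM-titled organoids, 326, 339 and 385 CPM in T-cM-titled organoids and 160, 106 and 128 CPM in tumoroids. Its values did not overlap between tumoroids and organoids (−1.47, SE 0.19, adjusted p = 0.000245). The core proteins Uqcrc1 and Uqcrc2 each fell by 1.21 (SE 0.18 and 0.16). Cyc1, cytochrome c1 of the same complex but outside the symbol pattern, fell by 1.38 (SE 0.20), and Ndufab1, the acyl carrier protein of complex I, by 0.78 (SE 0.15).

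Complex IV, cytochrome c oxidase, had 11 of 14 nuclear genes lower, with a median of −1.22. The gene with the largest difference was Cox7a1 (chromosome 7, 30184144 to 30186078, plus strand). It had 20.1, 38.0 and 53.2 CPM in WT-cM-titled organoids, 18.9, 22.2 and 22.8 CPM in T-cM-titled organoids, and 0.363, 0.186 and 0.756 CPM in tumoroids, where it was supported by 8, 5 and 22 reads. The tumoroid libraries were thus all supported by few reads and far below every organoid library. The log2 fold change was −6.37 (SE 0.53, adjusted p = 2.48e-05) against WT-cM-titled and −5.57 (SE 0.51, adjusted p = 4.28e-05) against T-cM-titled organoids, the former being −7.09 without tumoroid replicate 3.

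The ubiquitous isoform Cox7a2 fell by a much smaller amount (−1.33, SE 0.22, adjusted p = 0.000938), from 297 ± 39.3 CPM in WT-cM-titled organoids to 118 ± 36.2 CPM in tumoroids. Per length, Cox7a1 made up 12.3%, 16.9% and 23.2% of the summed TPM of Cox7a1 and Cox7a2 in WT-cM-titled organoids, 11.2%, 13.02% and 12.8% in T-cM-titled organoids and 0.402%, 0.37% and 1.23% in tumoroids. The share did not overlap between organoids and tumoroids. Cox7a2l, a related protein that helps to join complexes III and IV, was not called (−0.22, SE 0.25, adjusted p = 0.501), with 214 to 261 CPM in WT-cM-titled organoids and 287, 179 and 137 CPM in tumoroids, and its sign turned positive on the TPM scale (0.25).

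Of the other isoform pairs of complex IV, the ubiquitous members carried nearly all of the signal. Cox6a1 and Cox6b1 fell by 1.24 and 1.28 (SE 0.22 for each), and Cox4i1 and Cox8a by 0.95 and 0.84 (SE 0.18 and 0.26), the call of Cox8a being lost in 3 of 6 fits with 1 library left out. Cox6a2, a striated-muscle isoform, had at most 10 reads in any library, and Cox6b2, a testis isoform, at most 19, so that no difference was detectable at this depth. Their shares of the TPM of each isoform pair were at most 0.221% and 0.145%.

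**Figure D2:**
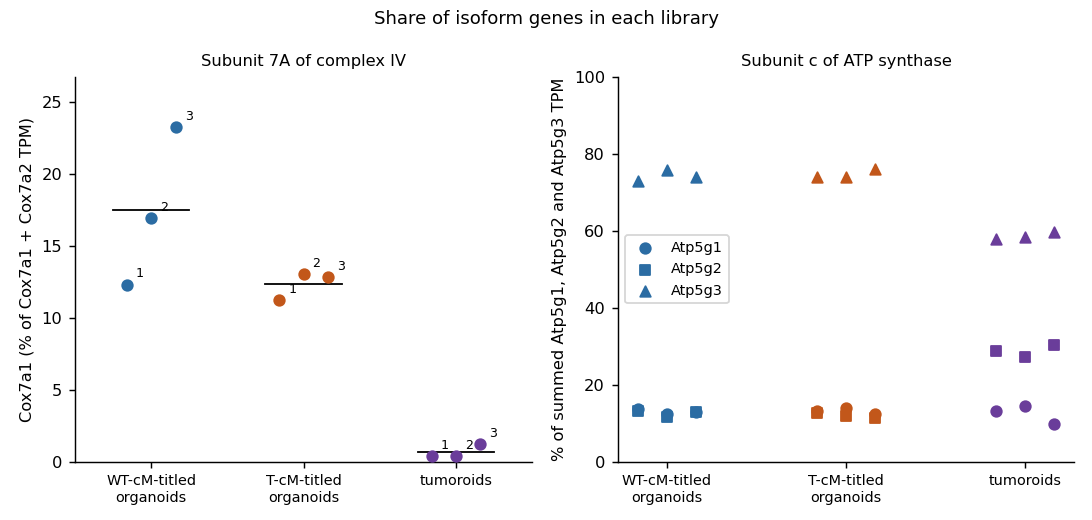
Left, Cox7a1 as a percentage of the summed TPM of Cox7a1 and Cox7a2 in each library, with replicate numbers and the group mean as a line; right, the 3 genes for subunit c of ATP synthase as percentages of their summed TPM. Cox7a1 is at most 1.23% in tumoroids and at least 11.2% in organoids, and Atp5g2 is at least 27.2% in tumoroids and at most 13.2% in organoids.

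Complex V, ATP synthase, had 14 of 17 nuclear genes lower, with a median of −1.17. Atp5a1 and Atp5b were among the highest nuclear genes per length, with means of 1971 and 1865 TPM over all libraries. Atp5b had 3412, 3814 and 3817 CPM in WT-cM-titled organoids, 3402, 3582 and 3588 CPM in T-cM-titled organoids and 2045, 1689 and 1442 CPM in tumoroids. It fell by 1.09 (SE 0.20, adjusted p = 0.00168) and Atp5a1 by 1.17 (SE 0.19, adjusted p = 0.000943). The tumoroid libraries of both genes lay below all organoid libraries.

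Subunit c, which forms the rotor ring, is encoded by 3 genes whose mature proteins are known to be identical, and these did not change alike. Atp5g3 (chromosome 2, 73908447 to 73911326, minus strand) had 777, 944 and 924 CPM in WT-cM-titled organoids, 731, 808 and 853 CPM in T-cM-titled organoids and 323, 225 and 245 CPM in tumoroids. That was the largest fall among complex V genes (−1.74, SE 0.19, adjusted p = 9.54e-05). Atp5g1 fell by 1.44 (SE 0.21, adjusted p = 0.000536).

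Atp5g2 (chromosome 15, 102662864 to 102672352, minus strand) had 108, 112 and 123 CPM in WT-cM-titled organoids, 95.2, 100 and 98.9 CPM in T-cM-titled organoids and 123, 80.5 and 95.9 CPM in tumoroids. The groups overlapped and the gene was not called (−0.20, SE 0.16, adjusted p = 0.354). On the TPM scale it was 160 to 169 in WT-cM-titled organoids and 179 to 241 in tumoroids, where its log2 fold change was 0.32 (adjusted p = 0.0738). The share of Atp5g2 within the 3 genes does not depend on library scaling: it was 11.5 to 13.2% of their summed TPM in the 6 organoid libraries and 28.7%, 27.2% and 30.4% in tumoroids. The share of Atp5g3 was 73.0 to 76.0% in organoids and 58.0 to 59.7% in tumoroids. Atp5s and Atp5sl, matched by symbol but not counted among the core subunits, were the other genes not called among the 17. They stood at 0.32 (adjusted p = 0.292) and −0.45 (adjusted p = 0.0782).

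Ndufa4l2 was counted in organoids only, with 3, 7 and 87 reads in WT-cM-titled replicates 1, 2 and 3, 1, 6 and 42 reads in T-cM-titled replicates 1, 2 and 3, and 0 in each tumoroid library. Most of its reads came from replicate 3 of both organoid groups, that is from 1 mouse. Against a floor of 3 counts per tumoroid library it was at least 12.7-fold lower than in WT-cM-titled organoids, but only at least 2.53-fold lower without WT-cM-titled replicate 3. It also passed the TPM minimum through replicate 3 of the organoid groups alone, so its difference is no independent observation. With it set to this bound the nuclear median stayed at −1.10. Its call was lost in 4 of the 6 fits that left out 1 tumoroid or WT-cM-titled library. Its paralogue Ndufa4, a subunit of complex IV despite its name, fell by 1.08 (SE 0.20, adjusted p = 0.00186).

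The mitochondrially encoded genes followed another pattern, in which tumoroid replicate 2 stood apart. They took 1.69%, 1.24% and 1.35% of counted reads in WT-cM-titled organoids, 1.65%, 1.27% and 1.25% in T-cM-titled organoids and 0.665%, 2.10% and 0.786% in tumoroids. Tumoroid replicates 1 and 3 were below all 6 organoid libraries and replicate 2 was above them. The 80 nuclear genes took 2.33 to 2.60% in WT-cM-titled organoids, 2.23 to 2.32% in T-cM-titled organoids and 1.81%, 1.34% and 1.31% in tumoroids. In nuclear genes replicate 2 lay within the range of the tumoroids, and its ratio of mitochondrial to nuclear reads was 1.57, compared with 0.367 and 0.600 in the other tumoroids and 0.499 to 0.737 in organoids.

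**Figure D3:**
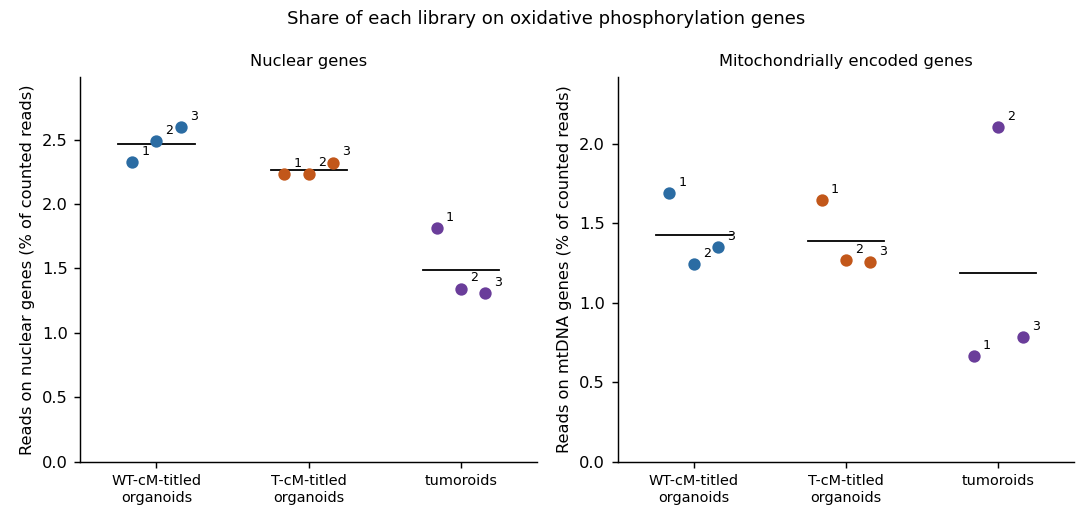
Share of counted reads on the 80 nuclear (left) and 13 mitochondrially encoded (right) genes in each library, numbered by replicate, with the group mean as a line. The tumoroids lie at 1.31 to 1.81% for nuclear genes, below all organoids, while for mitochondrially encoded genes replicate 2 lies at 2.10%, above all other libraries.

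The gene called in tumoroids was mt-Nd1, a membrane subunit of complex I. It had 3459, 2671 and 2447 CPM in WT-cM-titled organoids, 3326, 2784 and 2486 CPM in T-cM-titled organoids and 1109, 1936 and 912 CPM in tumoroids. All tumoroid libraries were below all organoid libraries (−1.12, SE 0.30, adjusted p = 0.0138). For mt-Co1, the catalytic subunit of complex IV and the highest gene per length, the values were 7299, 6050 and 7298 CPM, 7568, 6510 and 6591 CPM, and 2332, 8987 and 3543 CPM in the same order of groups. Replicate 2 exceeded every organoid library, so the groups overlapped (−0.47, SE 0.43, adjusted p = 0.404).

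The same arrangement, with tumoroid replicate 2 above replicates 1 and 3, was seen for mt-Cytb of complex III (805, 2910 and 815 CPM in tumoroids) and, in complex I, for mt-Nd2 (589, 1390 and 596 CPM), mt-Nd4 (225, 727 and 240 CPM), mt-Nd5 (438, 1326 and 511 CPM) and mt-Nd6 (10.02, 44.2 and 11.6 CPM), the gene on the opposite strand. None of these 5 was called against WT-cM-titled organoids, with log2 fold changes from −1.08 to −0.42. Over the 13 genes the median was −0.52. As given above, the count of 1 rests on that library.

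The levels of the 13 genes fell into separate ranges. Per length, mt-Co1, mt-Nd1, mt-Cytb, mt-Nd2, mt-Nd5, mt-Nd4 and mt-Nd6 had 63.2 to 21704 TPM, while mt-Co3, mt-Co2, mt-Atp6, mt-Atp8, mt-Nd3 and mt-Nd4l had 0.49 to 26.9 TPM in every library. For 5 of the 6 low genes nearly every window of 100 bases also occurred in a transcript of another annotated gene: 99.9% for mt-Co3, 99.5% for mt-Co2 and mt-Atp6, 98.5% for mt-Nd4l and 97.6% for mt-Nd3. The gene in question was in each case a nuclear copy on chromosome 1, and the copies of 4 of the 5 had a range of levels wholly above that of the mitochondrial row, for example 47.4 to 359 TPM for Gm10925 beside 6.42 to 20.6 TPM for mt-Atp6. For mt-Nd4l the ranges overlapped (0.49 to 3.27 TPM, beside 1.01 to 7.08 TPM for Gm10222). The reads of these genes cannot be divided between the genomes, and their values are uncertain. Of the genes with higher levels, mt-Nd4 shared 60.8% of its windows, mt-Co1 30.8% and mt-Nd2 3.19%, so that part of the reads of these genes may also be split, although the copies sharing most windows had lower levels than the mitochondrial rows (3.65 to 21.5 TPM for Gm28439 beside 535 to 1969 TPM for mt-Nd4, and 26.7 to 80.1 TPM for Gm29216 beside 4942 to 21704 TPM for mt-Co1). None of the windows of mt-Atp8 occurred in a transcript of another annotated gene, and its counts were 2 to 13 reads per library. Copies without an annotated transcript were not searched.

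**Figure D4:**
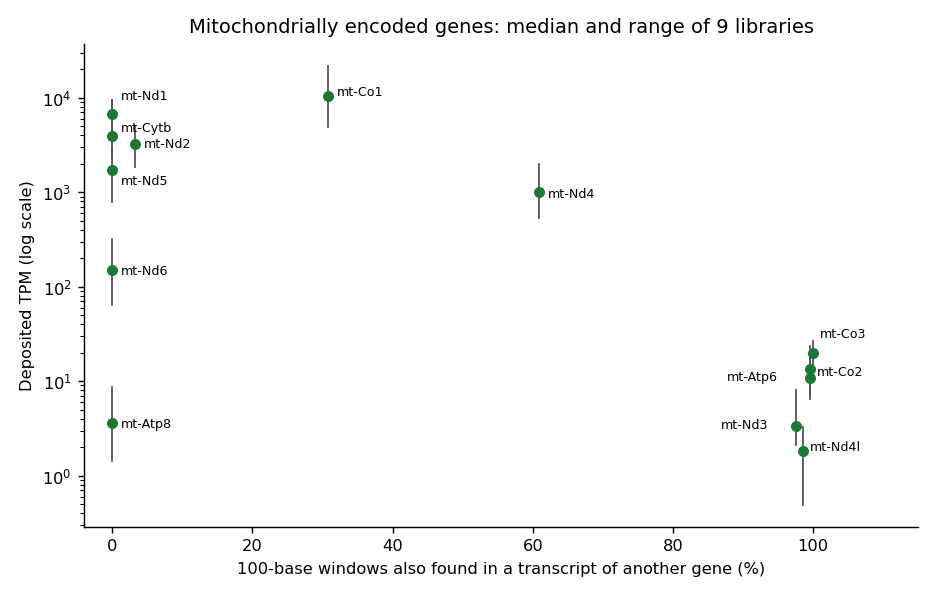
Deposited TPM (log scale) of the 13 mitochondrially encoded genes against the percentage of their 100-base windows that occur in a transcript of another annotated gene; points are medians and lines ranges of the 9 libraries. The 5 genes above 90% shared all lie under 26.9 TPM, and mt-Atp8 is low without windows shared with an annotated transcript.

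The second comparison was between the organoid groups, which came from the same 3 mice, with WT-cM-titled libraries as the reference. Differences were small and in the nuclear genes ran mostly one way: 77 of 80 nuclear log2 fold changes were below 0, beside 48.8% of all genes tested. These genes were measured in the same 6 libraries and are not independent observations. Their median was −0.13 (91.2% of the WT-cM-titled level), while the median of all genes was 0.00 and that of the 13 mitochondrially encoded genes 0.02. Of the 93 genes, 8 were lower and none was higher (8.60%, beside 5.05% lower and 5.03% higher among all genes tested). None of the 8 changed by over 1 on the log2 scale, beside 0.432% of all genes that fell and 0.673% that rose by that much. In 52 of 80 nuclear genes (65.0%) the T-cM-titled library was lower in all 3 pairs from the same mouse, beside 22.3% of all genes, and in 1 of 80 (1.25%) it was higher in all 3, beside 18.9%. In 13 of 80 (16.3%) all T-cM-titled libraries lay below all WT-cM-titled ones, beside 5.28% of all genes, and in none above them, beside 5.12%. The count of 8 rests on single libraries and on the pairing. It was 20 without replicate 1 (beside 9.36% lower among all genes), 0 without replicate 2 (beside 0%), 1 without replicate 3 (beside 1.46%) and 0 without the replicate block. Without the block edgeR called none of the 16208 genes. At an unadjusted p under 0.05, 5 of the 93 were then lower and 0 higher, beside 409 lower and 495 higher of the 16208. The count of 8 became 3 with DESeq2 (beside 2.15% lower among all genes), 2 with limma voom (beside 1.65%) and 0 on the TPM scale (beside 0%).

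Complex I, which holds 37 of the 80 nuclear genes, accounted for 5 of the 8. That was 13.5% of its nuclear genes, beside 5.05% lower among all genes tested, and these calls share the limits above. Ndufc2, a membrane-arm subunit, had 76.2, 62.8 and 69.8 CPM in T-cM-titled and 86.8, 97.9 and 97.6 CPM in WT-cM-titled organoids. Each T-cM-titled library was below each WT-cM-titled library, and the gene fell by 0.42 on the log2 scale (SE 0.09, adjusted p = 0.00181). Ndufs7, the core subunit that carries the last iron-sulphur cluster before coenzyme Q, had 131, 121 and 122 CPM against 153, 150 and 170 CPM (−0.33, SE 0.08, adjusted p = 0.00636). The accessory subunits Ndufb7, Ndufb6 and Ndufb8 fell by 0.31, 0.28 and 0.28 (adjusted p = 0.0216, 0.0253 and 0.0300), and in all 5 genes the groups did not overlap. Ndufb6 shared 28.2% of its windows with another gene.

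In the other complexes Uqcr11, a small subunit of complex III, had 216, 211 and 230 CPM against 244, 244 and 292 CPM (−0.23, SE 0.08, adjusted p = 0.0465). Sdhc was just under the threshold (−0.23, SE 0.08, adjusted p = 0.0499), with overlapping groups and a lower T-cM-titled value in each pair, and Sdhb, Sdhd and Sdha were not called, at −0.22, −0.14 and −0.07. No gene of complex V was called, although all 17 of its nuclear log2 fold changes were below 0, beside 48.8% of all genes tested.

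Of the 93 genes, Cox7a1 showed the largest called change between the organoid groups (−0.71, SE 0.13, adjusted p = 0.000584). It was lower in all 3 pairs, but by unequal amounts: 18.9 against 20.1 CPM in replicate 1, 22.2 against 38.0 CPM in replicate 2 and 22.8 against 53.2 CPM in replicate 3. The T-cM-titled values lay close together, the WT-cM-titled values spread widely, and the groups overlapped. No mitochondrially encoded gene was called. Their log2 fold changes ranged from −0.26 to 1.41, the highest being that of mt-Atp8, which rested on 2 to 13 reads.

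**Figure D5:**
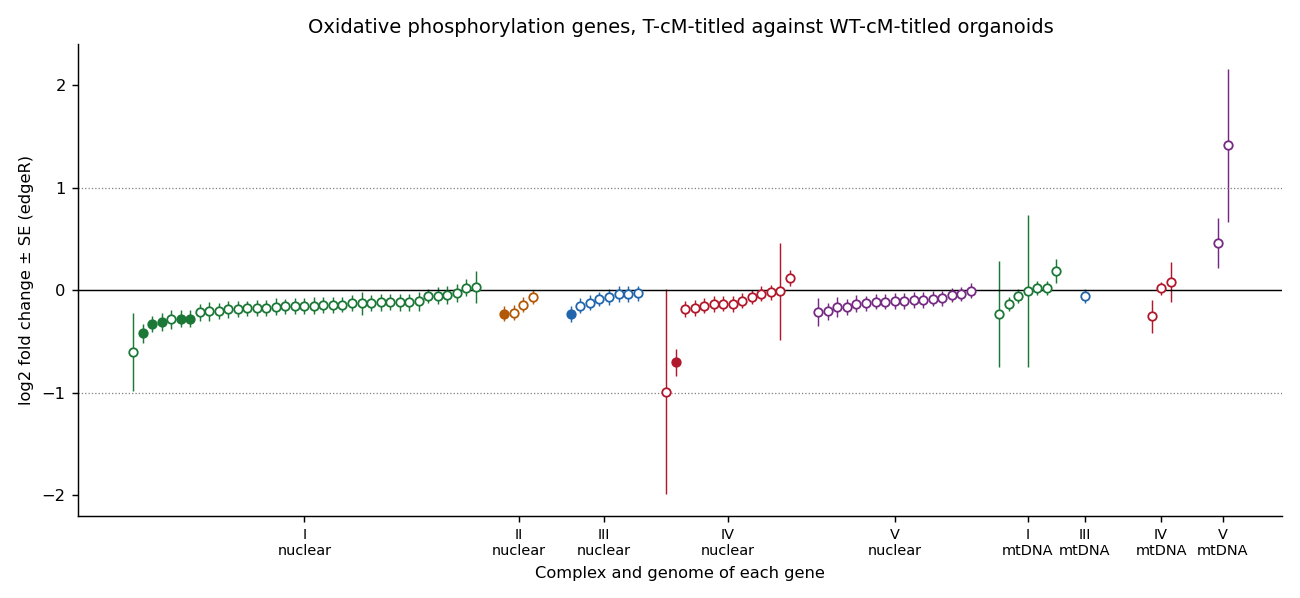
Log2 fold change with its standard error (edgeR) between the organoid groups, with WT-cM-titled as the reference, for the 93 genes, by complex and genome; filled points passed adjusted p under 0.05. Most nuclear genes lie slightly below 0, with 8 filled points between −0.71 and −0.23, and the widest errors belong to genes with few reads.

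Markers of other states moved between the organoid groups as well: 5 of 10 enterocyte markers and 5 of 8 proliferation markers were lower in T-cM-titled organoids and 1 enterocyte marker was higher, beside 5.05% lower and 5.03% higher among all genes tested. Without the replicate block these calls were lost too. Their part in the values above was not tested.

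Genes that serve the same pathway were followed by lists. The mobile carrier cytochrome c (Cycs) had 248, 313 and 264 CPM in WT-cM-titled organoids, 268, 272 and 268 CPM in T-cM-titled organoids and 96.0, 78.5 and 72.1 CPM in tumoroids. The tumoroids did not overlap with the organoids (−1.74, SE 0.16, adjusted p = 3.95e-05). It belonged to a list of 4 genes, with the ATP synthase inhibitor Atpif1 (−1.26, SE 0.23) and the small ATP synthase proteins Usmg5 and 2010107E04Rik, all of which were lower in tumoroids against WT-cM-titled organoids (beside 18.5% of all genes tested) and none of which was called between organoid groups (beside 5.05% lower and 5.03% higher).

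Of 24 assembly factors tested for complex IV, 14 were lower and none was higher in tumoroids against WT-cM-titled organoids (58.3%, beside 18.5% lower among all genes tested), with a median of −0.64, among them Coa7 (−1.47), the copper chaperone Sco1 (−1.24) and Coa3 (−1.10). Of 16 for complex I, 4 were lower (25.0%, near the share of all genes) and 1 was higher, with a median of −0.28, and without WT-cM-titled replicate 1 or 2 only 2 were lower. The one that rose was Nubpl, an iron-sulphur assembly factor, with 6.43, 6.69 and 7.66 CPM in WT-cM-titled organoids, 5.39, 3.80 and 4.23 CPM in T-cM-titled organoids and 19.7, 14.4 and 18.96 CPM in tumoroids. It was higher in tumoroids (1.35, SE 0.23, adjusted p = 0.00121) and lower in T-cM-titled organoids (−0.62, SE 0.17, adjusted p = 0.0177). Of 14 factors for complexes II, III and V, 3 were lower (21.4%, again near that share) and none was higher, with a median of −0.01, while 1 was higher without tumoroid replicate 3. In the organoid comparison 1, 1 and 2 genes of these lists were lower (Cox15, Nubpl, and Uqcc1 with Atpaf1) and none was higher. These were 4.17%, 6.25% and 14.3% of the lists, beside 5.05% lower and 5.03% higher among all genes tested, so that the shares for complexes IV and I lay near that of all genes.

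Of 13 genes for coenzyme Q, the lipid carrier between complexes, 6 were lower in tumoroids against WT-cM-titled organoids (46.2%, beside 18.5% of all genes tested) and none was higher (beside 23.4%). Pdss1, which makes its side chain, had 65.0, 50.6 and 56.7 CPM in WT-cM-titled organoids and 16.7, 10.6 and 7.45 CPM in tumoroids (−2.31, SE 0.27, adjusted p = 0.000144). Between organoid groups 2 were higher in T-cM-titled libraries, Coq8a (0.51, adjusted p = 0.000896) and Coq10b (0.54, adjusted p = 0.000387), and 2 were lower, Coq3 and Coq4 (−0.38 and −0.34), which is 15.4% in each direction beside 5.03% higher and 5.05% lower among all genes tested.

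Of 12 genes for transcription and replication of mitochondrial DNA, 3 were higher in tumoroids against WT-cM-titled organoids (25.0%, beside 23.4% of all genes tested), Mterf4 (1.00), Tfb1m (0.94) and the helicase Twnk (0.94), and 1 was lower (8.33%, beside 18.5%), the polymerase subunit Polg2 (−1.60). Tfb1m and Twnk each lost the call in 4 of 6 fits with 1 library left out, and the count of 3 was 1 without WT-cM-titled replicate 2 or 3 or tumoroid replicate 1. The count of 1 lower was 2 without tumoroid replicate 1 or 2. Tfam, which packages mitochondrial DNA, was not called (−0.27, SE 0.20, adjusted p = 0.292), and no gene of the list was called between organoid groups.

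Of 10 regulators of mitochondrial genes, 5 were lower in tumoroids against WT-cM-titled organoids (50.0%, beside 18.5% of all genes tested) and none was higher (beside 23.4%), while 1 was higher without WT-cM-titled replicate 1 or tumoroid replicate 3. Esrra, the oestrogen-related receptor alpha, had 220, 280 and 322 CPM in WT-cM-titled organoids, 216, 291 and 302 CPM in T-cM-titled organoids and 118, 110 and 84.4 CPM in tumoroids. The tumoroid values lay below all organoid values (−1.40, SE 0.21, adjusted p = 0.000577), and the organoid groups overlapped. Its relative Esrrg had 252, 130 and 240 reads in WT-cM-titled organoids and 4, 33 and 1 reads in tumoroids, most of the tumoroid reads coming from replicate 2. Its log2 fold change was −4.46 (SE 0.87, adjusted p = 0.00267), and −6.68 without tumoroid replicate 2, a size that rests on few reads. The coactivator Ppargc1b fell by 1.22 (SE 0.28, adjusted p = 0.00637), while Gabpa, an ETS factor, fell by 0.48 and Nrip1, a corepressor, by 0.98. Ppargc1a, the coactivator best known for mitochondrial biogenesis, was not called in tumoroids (−0.47, SE 0.79, adjusted p = 0.669). It differed strongly between mice, with 5.77, 49.9 and 40.0 CPM in WT-cM-titled and 5.18, 35.3 and 30.6 CPM in T-cM-titled organoids, and within mice it was lower in T-cM-titled libraries (−0.37, SE 0.11, adjusted p = 0.0286). Esrrg was lower there too (−0.77, SE 0.14, adjusted p = 0.000489), from 13.9, 7.90 and 10.6 to 8.83, 4.41 and 5.75 CPM, whereas Esrra was not called (−0.01). Between organoid groups, of 11 list genes called, counting Dlst of the citric acid cycle, none stayed called in all 3 fits with 1 replicate left out, and none was called without the replicate block.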

How the data were processed

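The study's methods state that reads were aligned to mm10 with STAR (2.5.3a) and counted on Gencode vM13. The counting tool and strand setting are not given in the sources used here. The authors deposited raw, unnormalised counts and TPM. Counts were normalised with TMM in edgeR (4.0.16, R 4.3.3) and tested by its older quasi-likelihood fit. The 16208 genes with at least 1 TPM in at least 1 library were tested, and p-values were adjusted over all of them (Benjamini-Hochberg). Organoid groups were compared over 6 libraries blocked by replicate number, since same-numbered libraries came from the same mouse (correlations of their deviations 0.546, 0.338 and 0.547). Tumoroids were compared over 9 libraries without a block. Replicates of a group were distinct libraries (chi-square per degree of freedom at least 16). Gene positions and the transcripts used for shared windows of 100 bases came from Gencode vM21 on the same build. The fits were tested on simulated data. Alternatives were limma voom (3.58.1), DESeq2 (1.42.0), other factors and filters, log2(TPM + 1), the block and each replicate left out. Genes were named by complex, isoform, level, p-value and threshold. The genes, lists and naming rule were chosen with earlier results of these data known. Plots were drawn with matplotlib 3.10.9.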

Additional observations from a re-analysis of the deposited data

How the results depend on the processing

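Between organoid groups, the count of 8 lower genes was 2 with limma voom, 3 with DESeq2 and with edgeR's newer quasi-likelihood method, 5 with edgeR's filter by expression, and 0 on the TPM scale and without the replicate block. Among all genes the lower shares were 1.65% with limma voom, 2.15% with DESeq2, 3.1% with the newer method and 5.04% with the filter by expression. The count of 8 ranged from 0 to 20 when 1 replicate was left out (beside 0 to 9.36% of all genes), with 0 to 1 genes lower by over 1 on the log2 scale. The cause was not tested. Under the alternatives, 54 of 104 values of the 8 called genes stayed past the threshold and 50 lost it.

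For tumoroids against WT-cM-titled organoids, leaving out 1 library gave 66 to 76 genes lower, and 39 to 58 by over 1 on the log2 scale. On the TPM scale 3 were lower and 1 was higher by over 1, and 2 were higher at adjusted p under 0.05. Against T-cM-titled organoids the ranges were 62 to 71 and 28 to 48. On the TPM scale 39 were lower and 3 higher, with 2 lower and 1 higher by over 1. Upper-quartile factors gave 1 higher. TPM also moved the split over all genes tested, to 42.2% higher and 10.6% lower against WT-cM-titled organoids and 41.9% and 10.9% against T-cM-titled organoids.

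Of the mitochondrially encoded genes, the count of 1 became 2 with limma voom, 3 with DESeq2 and 0 with TPM in both tumoroid comparisons, and 2 with RLE factors or without the TPM filter against WT-cM-titled organoids. It ranged from 1 to 8 when 1 library was left out.

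Replicate numbers did not pair tumoroids with organoids (correlations from −0.07 to 0.196). With a replicate block, 2 mitochondrially encoded genes were lower against WT-cM-titled organoids, and 1 gene (Atp5s) was higher against T-cM-titled organoids. Of the called genes, Ndufa2 turned its sign against T-cM-titled organoids on the TPM scale (0.11), and among the named genes no call changed sign, while 899 of 917 and 863 of 883 values stayed past the threshold in the tumoroid comparisons. Genes with under 20 reads in every library (Cox6a2, Cox6b2, mt-Atp8 and mt-Nd4l) had standard errors of 0.59 to 1.03 on the log2 scale against WT-cM-titled organoids.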

Other observations

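Enzymes of the citric acid cycle, which feed electrons to complexes I and II, were lower in tumoroids too: 11 of 13 against WT-cM-titled organoids (84.6%, beside 18.5% of all genes tested) and none higher (beside 23.4%), with a median log2 fold change of −1.14. Mdh2, malate dehydrogenase, had 1753, 2286 and 2687 CPM in WT-cM-titled organoids, 1869, 2531 and 2490 CPM in T-cM-titled organoids and 488, 467 and 348 CPM in tumoroids (−2.37, SE 0.24, adjusted p = 7.2e-05). Ogdh, of the 2-oxoglutarate dehydrogenase complex, fell by 1.75 (SE 0.17, adjusted p = 5e-05). Both lay well below every organoid library in all 3 tumoroid libraries. Between organoid groups only Dlst, of the same complex, was called in this list (−0.28, SE 0.08, adjusted p = 0.0163), 7.69% beside 5.05% lower among all genes tested.

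The mitochondrial ribosomal RNAs, which are not subunit genes, gave 697 to 1043 TPM (mt-Rnr1) and 793 to 1397 TPM (mt-Rnr2) in organoids. In tumoroids mt-Rnr1 had 311, 505 and 297 TPM and mt-Rnr2 had 423, 929 and 417 TPM, so that replicate 2 was again the highest tumoroid library. Libraries were made from polyA-selected RNA, and levels of these transcripts depend on what that selection kept.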
